A study of Homo sapiens with 27 samples.

Results

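Among the zinc finger genes of U2OS cells, a human osteosarcoma line, 109 genes were chosen because their transcripts were lowest in the MMP2sh1 line. The choice took every symbol made of ZNF and a number, kept the 408 of 483 such symbols with a mean of at least 1 CPM (counts of a gene per 1000000 gene counts of a library) in the 9 control libraries, and then kept those whose log2 ratio of MMP2sh1 to control, averaged over 3 stages of culture, was below -0.25. A constant of 0.1 CPM was added before each ratio was taken. The 109 genes are 26.7% of the expressed ZNF symbols, out of 55882 gene symbols counted. Since the MMP2sh1 values chose these genes, their values in MMP2sh1 are given as a description, without a test, and the comparisons tested are those over the stages of the control line and in the second knockdown line, MMP2sh2.

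Poly(A) RNA was sequenced from 3 stable U2OS lines made by lentiviral transduction and puromycin selection: a control titled WT in the labels, whose treatment notes give it a blank pLKO.1 vector, MMP2sh1 (hairpin 23) and MMP2sh2 (hairpin 26), both hairpins directed at MMP2, the gene of matrix metalloproteinase 2, which the study examined as a protease of the histone H3 tail. Each line was plated at 30% confluence (day -2, subconfluent), and was also harvested at confluence (day 0) and when over-confluent (day +2), with 3 libraries, described by the study as independent biological replicates, in each of the 9 groups. Each hairpin is represented by a single stable line, so an effect of MMP2 depletion cannot be told apart from other properties of that line. Total gene counts ran from 33580129 to 59374327 per library, and replicate libraries of a group were further apart than counting error.

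MMP2 itself followed the labels in every library. In the control libraries of days -2, 0 and +2 its levels ran from 216 to 242, from 327 to 337 and from 499 to 518 CPM. In MMP2sh1 it was 32.8 to 44.1, 54.8 to 66.5 and 96.5 to 103 CPM on those days, and in MMP2sh2 131 to 144, 152 to 159 and 276 to 304 CPM, so that MMP2sh2 lay between MMP2sh1 and the control at each day with no overlap between the lines. Of the cell type markers examined, the mesenchymal and bone matrix genes VIM, COL1A1 and SPARC were at 707 CPM or more in all 27 libraries and the bone regulator RUNX2 at 29.0 to 66.8 CPM, whereas the osteoblast genes SP7, BGLAP and ALPL reached at most 0.165, 0.580 and 6.74 CPM and the collagen gene COL1A2 0.643 CPM. The epithelial genes EPCAM and CDH1 reached at most 6.92 and 2.48 CPM, and the leukocyte gene PTPRC at most 1.46 CPM.

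C2H2 zinc finger proteins bind DNA through repeated finger modules, each held together by a zinc ion, and they form the largest family of transcription factors in the human genome. Many carry a KRAB domain, which recruits the scaffold protein TRIM28 and with it the histone methyltransferase SETDB1 to silence the bound sites, among them transposable elements. KRAB zinc finger genes arose by repeated duplication and stand in dense clusters, most of them on chromosome 19, so that neighbours often resemble each other in sequence.

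Of the 109 genes, 106 were found under the same symbol in the GENCODE annotation of GRCh37 (hg19), and 296 of the 299 other expressed ZNF genes. The 3 that were not found, ZNF542, ZNF767 and ZNF788, are loci known in newer gene catalogues as pseudogenes. Chromosome 19 held 73 of the 106 (68.9%) against 116 of 296 (39.2%) of the other expressed ZNF genes, and 64 (60.4%) lay within 100000 bases of another of the 109, against 68 (23.0%) of the others. None of the 28 expressed ZNF genes of chromosome 16 was among them. The plot of genes by chromosome shows this split. Translated from the transcript that GENCODE marks as canonical, 72 of the 106 proteins (67.9%) held a KRAB-like stretch, against 146 of 296 (49.3%), and the median number of finger patterns was 12 against 10. A count of at least 8 fingers was found in 93 of 106 and in 197 of 296. The 3 without a standard finger pattern in that transcript were ZNF503, ZNF703 and ZNF718. These shares describe what the choice selected and were not tested, since neighbouring duplicated genes are not independent.

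**Figure D1:**
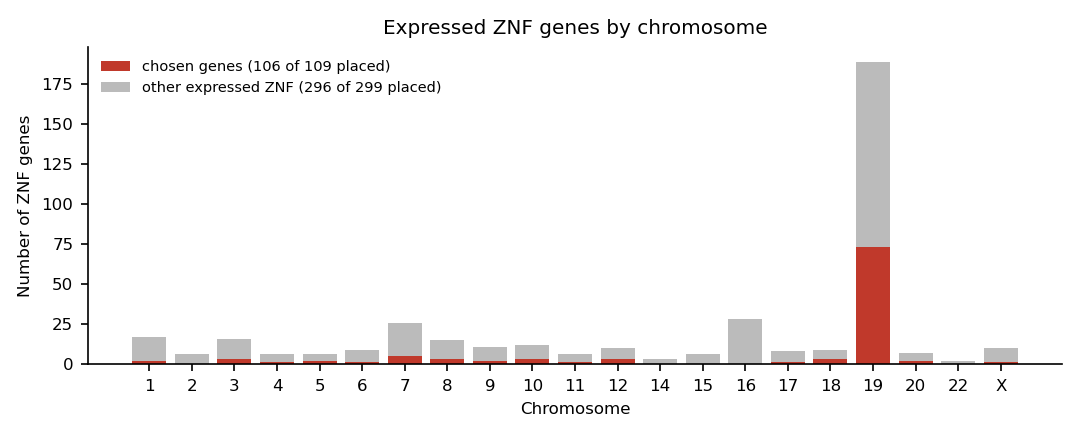
Number of expressed ZNF genes (at least 1 CPM on average in the control) on each chromosome of GRCh37, with the genes lowest in MMP2sh1 in red and the others in grey, stacked. Chromosome 19 holds 73 of the 106 placed genes, 38.6% of its expressed ZNF genes, and chromosome 16 none of its 28.

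Within chromosome 19 the chosen genes were spread unevenly over its runs of neighbouring ZNF genes. In the run nearest the centromere (chr19:21203440-24312770), which holds ZNF91, ZNF430, ZNF492 and ZNF675, 8 of 9 expressed ZNF genes were chosen. In the run at chr19:52074536-54083523, with ZNF528, ZNF610, ZNF415 and ZNF331, 17 of 34 were chosen, and in the last run of the chromosome (chr19:55987984-58992597) 19 of 54. None of the 5 at chr19:35168544-35455133 was chosen.

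Upstream sequence was taken from RefSeq (GRCh38.p14), in which 88 of the 109 genes and 258 of the other expressed ZNF genes had an entry. The 250 bases before the start site are shown for 4 genes whose values are described further on: ZNF528 (chr19:52397599-52397848, plus strand) and ZNF793 (chr19:37506689-37506938, plus strand) from the chromosome 19 clusters, and ZNF300 (chr5:150904981-150905230, minus strand) and ZNF503 (chr10:75401917-75402166, minus strand, the first of 2 entries) from outside them. Capitals mark the letters CCGGAA (the core bound by ETS factors), GGGCGG (the GC box bound by SP factors) and CCAAT, on either strand; no marked stretches overlap.
ZNF528: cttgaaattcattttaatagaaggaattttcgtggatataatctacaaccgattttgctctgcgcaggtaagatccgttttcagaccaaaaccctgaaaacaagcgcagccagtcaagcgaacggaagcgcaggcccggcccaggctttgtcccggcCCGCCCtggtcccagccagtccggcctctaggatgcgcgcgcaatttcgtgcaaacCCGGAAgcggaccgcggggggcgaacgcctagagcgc
ZNF793: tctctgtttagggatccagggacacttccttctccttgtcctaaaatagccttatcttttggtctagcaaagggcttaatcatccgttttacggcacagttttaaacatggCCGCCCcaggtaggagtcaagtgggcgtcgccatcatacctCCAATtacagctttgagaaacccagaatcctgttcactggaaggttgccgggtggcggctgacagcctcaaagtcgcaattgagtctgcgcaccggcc
ZNF300: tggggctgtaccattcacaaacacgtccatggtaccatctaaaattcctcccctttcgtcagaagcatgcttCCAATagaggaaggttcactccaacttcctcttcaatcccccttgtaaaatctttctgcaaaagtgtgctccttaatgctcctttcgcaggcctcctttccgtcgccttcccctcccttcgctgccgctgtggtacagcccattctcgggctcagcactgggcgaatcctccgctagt
ZNF503: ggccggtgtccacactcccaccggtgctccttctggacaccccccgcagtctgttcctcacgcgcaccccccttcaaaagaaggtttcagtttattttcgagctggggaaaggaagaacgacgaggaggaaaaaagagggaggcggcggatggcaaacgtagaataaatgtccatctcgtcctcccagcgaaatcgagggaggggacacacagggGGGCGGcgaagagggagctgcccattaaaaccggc
Only the ZNF528 window holds CCGGAA, from 37 to 32 bases before the start. Over all entries, CCGGAA was present in 43.2% of the windows of the chosen genes, 38.0% of those of the other expressed ZNF genes and 14.8% of 27305 windows of all genes. GGGCGG was present in 58.0%, 64.7% and 42.3%, and CCAAT in 45.5%, 44.2% and 33.0%. The median number of CpG dinucleotides in the 250 bases was 15.5, 19 and 11. The chosen genes thus differed from all genes in the direction in which the other expressed ZNF genes also differed. A match is a description of these letters and not of binding.

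In the control the chosen genes had low counts. Their mean level over the 9 control libraries had a median of 6.16 CPM (range 1.08 to 143), 10 genes were below 2 CPM and 32 were at 10 or more, against a median of 14.6 CPM for the other expressed ZNF genes. Per kilobase of exon the median was 1.17 CPM, against 2.60 CPM for the others. The highest levels per kilobase were those of ZNF703 (20.3 CPM per kilobase), ZNF503 (13.2) and ZNF532 (12.2). ZNF703 and ZNF503 encode related transcriptional repressors of the NET family. Exons of 60 of the 106 placed genes overlap those of another gene, as do those of 166 of the 296 other placed ZNF genes. As reads were counted without strand and ambiguous reads were left out, the counts of genes with such overlap, and of closely similar neighbours, are less certain.

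The sums of CPM over the 109 genes place the 9 groups. On days -2, 0 and +2 the control sums were 1024 ± 26.6, 1261 ± 18.3 and 1365 ± 10.1 CPM (mean ± SD, n = 3). In MMP2sh1 it was 779 ± 14.0, 946 ± 8.27 and 1098 ± 24.8 CPM, and in MMP2sh2 916 ± 52.4, 1071 ± 25.7 and 1289.6 ± 8.76 CPM (mean ± SD, n = 3). At each day the libraries of MMP2sh2 lay above those of MMP2sh1, from which the genes were chosen, and below those of the control, with no overlap. The control libraries also entered the choice, so this order is not independent of it. The sum was higher at each later day in all 3 lines. The other 299 expressed ZNF genes summed to 6562, 6906 and 7166 CPM in the control and to 6179.9, 6641 and 7215 CPM in MMP2sh2. For these genes, too, the MMP2sh2 libraries lay below those of the control at days -2 and 0, and they overlapped at day +2. In such bulk libraries, fewer cells with a transcript and less transcript per cell cannot be told apart.

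**Figure D2:**
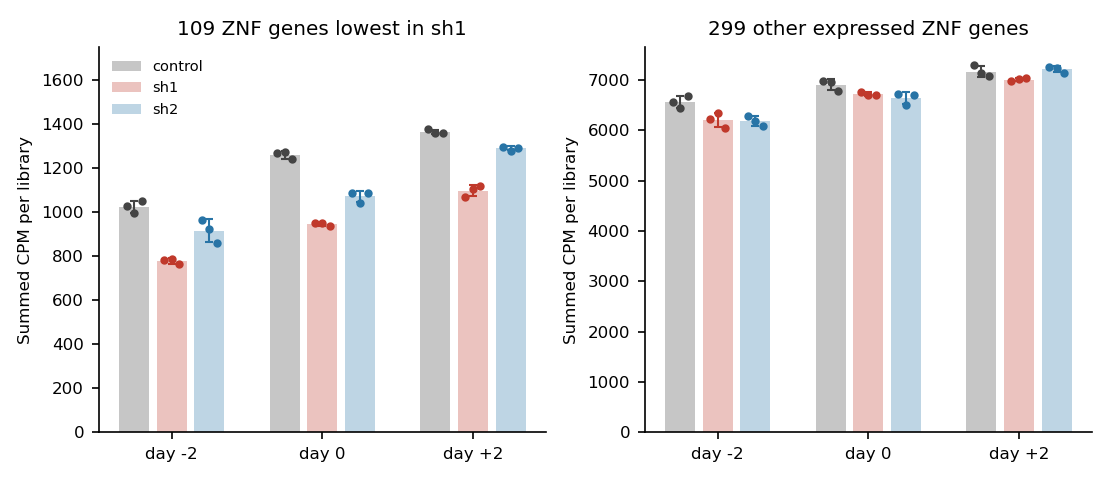
Summed CPM of the 109 chosen ZNF genes (left) and of the 299 other expressed ZNF genes (right) by day and line. Bars are means of 3 libraries, error bars their SD and points the libraries; both axes start at 0. On the left MMP2sh2 lies between the control and MMP2sh1 at each day, with means of 916, 1071 and 1289.6 CPM. The control and MMP2sh1 libraries entered the choice of the genes.

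In MMP2sh1, the line that chose the genes, the median log2 ratios to control on days -2, 0 and +2 were -0.39, -0.37 and -0.33, against -0.08, -0.07 and -0.08 for the other expressed ZNF genes. The ratio was below 0 at all 3 days for 97 of the 109 genes and below -0.25 at all 3 days for 33. The mean over the days was below -0.5 for 20 genes. It ranged from -1.18 for ZNF718 to -0.25 at the threshold, where ZNF468 (-0.255) and ZNF471 (-0.253) lay just inside and ZNF266 (-0.249) and ZNF30 (-0.248) just outside. Of all 408 expressed ZNF genes, only 6 had a mean ratio above 0.25, and the median of the 408 was -0.14. After ZNF718 the lowest were ZNF503 (-0.98), ZNF793 (-0.77), ZNF300 (-0.75), ZNF835 (-0.75), ZNF415 (-0.69), ZNF528 (-0.68) and ZNF610 (-0.66), of which ZNF793, ZNF835, ZNF415, ZNF528 and ZNF610 lie on chromosome 19.

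ZNF718 had few reads. In the control libraries of the 3 days in order it was at 2.95, 2.11 and 3.61 CPM, then 3.11, 3.74 and 3.02, then 2.52, 2.98 and 2.72. In MMP2sh1 it was at 0.784, 0.459 and 1.01, then 1.89, 1.497 and 1.46, then 1.24, 1.95 and 1.57 CPM. In MMP2sh2 it was at 1.49, 2.36 and 1.73, then 1.82, 2.65 and 2.79, then 2.08, 1.92 and 2.35 CPM. The MMP2sh1 libraries were below all control libraries of the same day, while those of MMP2sh2 overlapped the control at day -2 and lay below it at days 0 and +2. The log2 fold changes of MMP2sh2 were -0.59, -0.40 and -0.38 at the 3 days, none of them called (adjusted p of 0.141, 0.274 and 0.442, edgeR).

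MMP2sh2 was compared with the control at each day by edgeR's quasi-likelihood test, fitted over all tested genes, with Benjamini-Hochberg adjustment at 0.05. This comparison uses the same control libraries that entered the choice of the genes, so a control level that was high by chance lowers both ratios, and the counts are read with that limit. All 109 genes passed the filter on low counts at each day. At day -2, 11 of 109 were called lower (10.1%), against 6.33% of all 18845 genes tested and 10.0% of the other expressed ZNF genes, and only ZNF703 was called higher, against 4.71% of all genes. At day 0, 14 were called lower (12.8%), against 5.81% of all genes and 5.35% of the other expressed ZNF genes. At day +2, 6 were called lower (5.50%), against 3.43% and 1.34%. None was called higher at days 0 and +2 by edgeR or by DESeq2, where 7.07% and 2.89% of all genes were; at an unadjusted p under 0.05, 0 and 2 of the 109 were higher in edgeR. These counts were lower with most libraries left out. Leaving 1 out also makes a group smaller, and this was not told apart from a dependence on particular libraries. At day -2 the genes called in either direction went from 12 down to 3 (without control replicate 1). They went from 14 to 6 (without replicate 1 of either line) at day 0. At day +2 they went from 6 to 3 (without control replicate 1 or 2 or MMP2sh2 replicate 2).

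Over the 109 genes the median log2 fold changes of MMP2sh2 on days -2, 0 and +2 were -0.18, -0.20 and -0.08. The corresponding medians were -0.06, -0.04 and -0.003 for the other expressed ZNF genes and 0.00 at each day for all genes. Estimates were below 0 for 87, 92 and 82 of the 109 genes. A call at any day was made for 26 genes, and 83 had none. The any-day count was not made for all genes or for the other expressed ZNF genes. It therefore describes the 109 without a background. Of the 14 calls at day 0, 10 fell among the 32 genes at 10 CPM or more, whose median was -0.20, and 4 among the 77 below 10 CPM, whose median was -0.19. At day -2 the genes called lower included 3 of the 72 with a KRAB-like stretch and 6 of the 34 without, whose medians were -0.17 and -0.23, a split that was not tested.

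**Figure D3:**
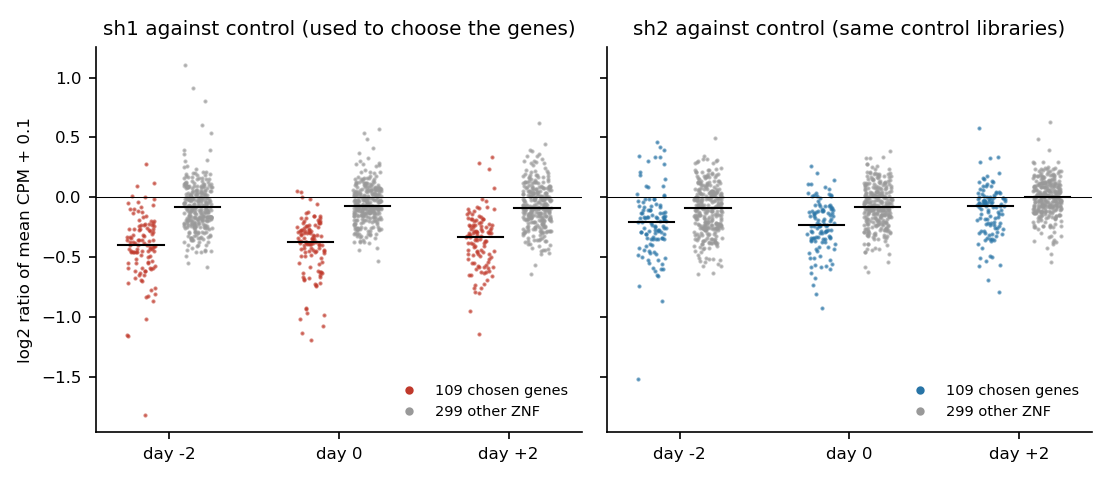
Log2 ratio of mean CPM + 0.1 to control in MMP2sh1 (left) and MMP2sh2 (right) at each day, 1 point per gene, for the 109 chosen genes (coloured) and the 299 other expressed ZNF genes (grey), with medians as black lines. The left panel holds the values that chose the genes. In the right panel, which shares the control libraries, the medians of the chosen genes are -0.21, -0.23 and -0.07.

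Only ZNF542 was called lower in MMP2sh2 at all 3 days by edgeR, against 0.326% of the 17785 genes tested at all days (58 genes) and none of the other 299 expressed ZNF genes. Its control libraries were at 27.8, 27.1 and 22.4 CPM, then 16.7, 19.8 and 16.4, then 17.4, 15.3 and 14.998 over the 3 days. The MMP2sh2 libraries were at 20.5, 20.3 and 18.0, then 14.6, 13.4 and 13.9, then 12.3, 11.4 and 13.9 CPM, below each control library of the same day. The log2 fold changes were -0.36 ± 0.09 (SE, adjusted p = 0.011), -0.29 ± 0.10 (adjusted p = 0.0412) and -0.35 ± 0.11 (adjusted p = 0.0421) in edgeR. These calls stood close to the threshold: leaving out a library ended the call in 2, 5 and 5 of 6 cases, with adjusted p up to 0.101, 0.267 and 0.22. In DESeq2 on the same libraries it was not called at day 0 (adjusted p = 0.058) or day +2 (adjusted p = 0.0647). With the replicate number as a block in edgeR, the calls at day 0 (adjusted p = 0.0641) and day +2 (adjusted p = 0.0609) were lost too.

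ZNF503 had its highest control level at confluence. Its control libraries were at 27.2, 25.4 and 32.3 CPM when subconfluent, at 58.1, 53.4 and 57.1 when confluent and at 40.6, 42.6 and 43.2 when over-confluent. In MMP2sh2 it was at 30.1, 25.3 and 28.7, then 34.1, 31.6 and 36.0, then 27.7, 33.9 and 28.4 CPM. The lines overlapped at day -2 and were apart at the later days. On the log2 scale MMP2sh2 differed from the control by 0.02 ± 0.09, -0.69 ± 0.07 and -0.49 ± 0.08 (SE) on the 3 days, with adjusted p of 0.919, 1.24e-09 and 1.71e-05, and the later calls held without any of the libraries. In MMP2sh1 the gene was at 15.3 to 19.1, 25.4 to 25.9 and 18.2 to 19.5 CPM, below the control at each day.

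ZNF703, the relative of ZNF503, changed in both directions. Its control libraries were at 52.0, 51.6 and 60.2 CPM, then 67.1, 69.1 and 72.3, then 73.4, 78.1 and 80.9. In MMP2sh2 it was at 67.7, 65.4 and 68.6, then 58.7, 58.7 and 59.0, then 93.3, 89.3 and 80.9 CPM, so that it was above the control at day -2 and below it at day 0. The differences on the log2 scale were 0.33 ± 0.07, -0.20 ± 0.06 and 0.18 ± 0.06, with adjusted p of 0.00205, 0.0137 and 0.093. The call at day 0 was lost without control replicate 3 (adjusted p = 0.085) or MMP2sh2 replicate 1 (adjusted p = 0.0542), and that at day -2 was not lost without any library.

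ZNF793, a KRAB zinc finger gene, was called lower in MMP2sh2 at 2 days. It was at 6.27, 5.82 and 5.46 CPM in the control at day 0 and at 3.75, 3.75 and 4.03 CPM in MMP2sh2, and at 6.31, 7.42 and 7.45 against 5.93, 4.45 and 4.43 CPM at day +2. The groups did not overlap at either day. The log2 fold change was -0.57 ± 0.16 (adjusted p = 0.0164) and -0.52 ± 0.16 (adjusted p = 0.0346), and at day -2 it was -0.41 ± 0.22 (adjusted p = 0.256). Leaving out a library ended the call in 3 of 6 cases at day 0 and in 4 of 6 at day +2 (adjusted p up to 0.0766 and 0.158). ZNF542, ZNF503, ZNF793 and ZNF611 were the 4 genes called lower on at least 2 days, a set named after its values were seen. The count over at least 2 days was not made for all genes or for the other expressed ZNF genes, so it has no background.

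Of the other members of highest level, ZNF532 was at 142, 150.5 and 143 CPM in the control at day 0 and at 124, 120.3 and 124 CPM in MMP2sh2, which did not overlap, with a log2 fold change of -0.20 ± 0.05 (adjusted p = 0.00259). ZNF148, a factor that binds GC-rich promoters, was lower at day -2 (log2 fold change -0.26 ± 0.07, adjusted p = 0.0157), a call lost without control replicate 1 or 3 or MMP2sh2 replicate 3 (adjusted p up to 0.0715). ZNF618, a partner of the methylcytosine reader UHRF2, and ZNF331 had no call at any day, with log2 fold changes of -0.09 to 0.13 and -0.09 to -0.07. Of the genes lowest in MMP2sh1, ZNF300 was called lower at day -2 (-0.46 ± 0.15, adjusted p = 0.0486) and ZNF415 at day 0 (-0.55 ± 0.18, adjusted p = 0.0354); each call was lost in 5 of 6 cases of a left-out library, with adjusted p up to 0.199 and 0.18. ZNF528, ZNF610 and ZNF835 had no call.

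**Figure D4:**
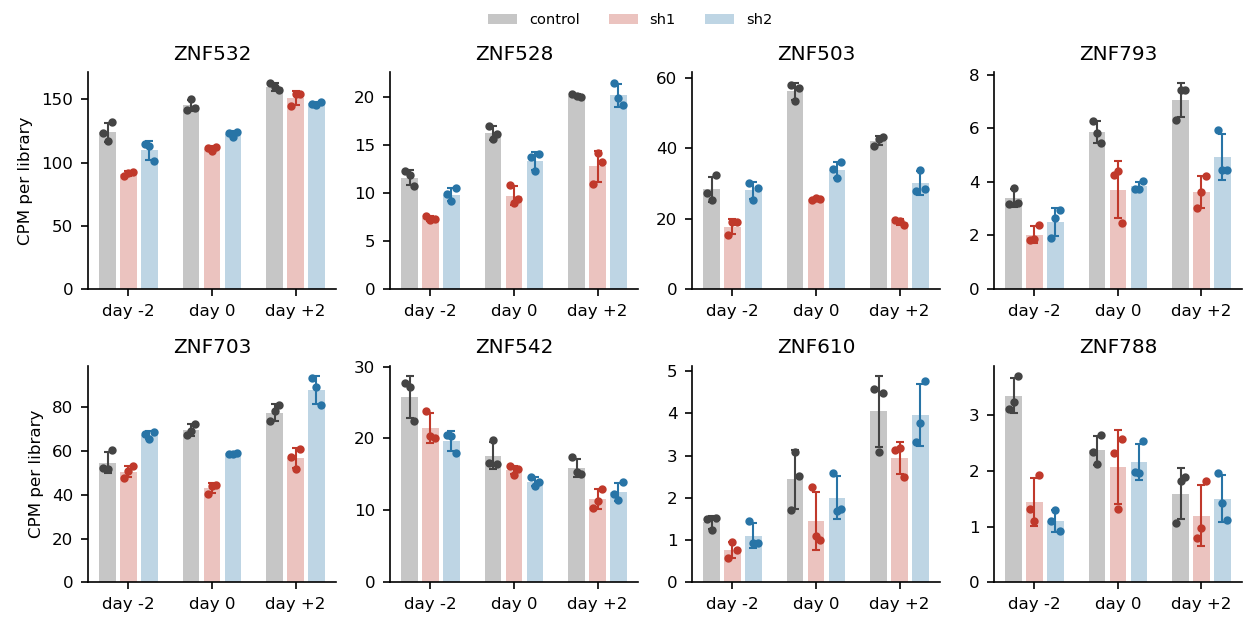
CPM of 8 of the chosen genes by day and line. Bars are means of 3 libraries, error bars their SD and points the libraries; each axis starts at 0 and has its own scale. ZNF528 and ZNF610 are higher at each later day in the control and in MMP2sh2, ZNF503 peaks at day 0 in the control (56.2 CPM) and ZNF542 is highest at day -2 (25.8 CPM).

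Over the stages of the control line, many of the 109 genes rose. Between day -2 and day +2, 57 were called higher (52.3%) and 6 lower (5.50%), against 28.1% higher and 28.6% lower of all 19099 genes tested. Of the other 299 expressed ZNF genes, 108 were called higher and 43 lower. The median log2 fold change was 0.35 for the 109, 0.15 for the others and 0.03 for all genes. The choice of the genes averaged the stages of the control, so it did not use the difference between them. With library totals in place of the trimmed mean (TMM) scaling, the median of all genes moved to 0.13 and that of the 109 to 0.45. Library features moved with the stage: the share of reads outside annotated exons ran from 6.56% to 6.60%, from 8.42% to 9.14% and from 7.53% to 7.93% over the 3 days, and the mitochondrial share of gene counts from 4.16% to 5.30%, from 4.67% to 5.42% and from 5.49% to 6.37%. Their part in the result was not tested.

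With all libraries in the fit, more of the 109 genes were called higher at the first step than at the second, unlike the other expressed ZNF genes. In DESeq2, 28 were called higher at the first step and 21 at the second. Calls in either direction were 41 and 31 with all libraries. With a library left out they ranged from 28 to 40 and from 24 to 29. Without control replicate 2 of day 0 there were 28 at each step, so the contrast in counts was not kept. From day -2 to day 0, 37 genes were called higher and 4 lower, against 16.4% and 19.1% of all genes, with a median log2 fold change of 0.26 (0.06 for the other expressed ZNF genes). From day 0 to day +2, 24 were called higher and 7 lower, against 21.3% and 20.1%, with a median of 0.14 (0.09 for the others). For this second step the share called higher was 22.0% of the 109 and 27.4% of the other expressed ZNF genes, while for the first step these shares were 33.9% and 17.1%. A rise was called at both steps for 11 genes, at the first only for 20 and at the second only for 13, and 6 rose and then fell. Such counts over both steps were not made for all genes, so they describe the 109 without a background.

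MMP2sh2 gave a stage comparison made of libraries that had no part in choosing the genes. Between day -2 and day +2, 61 of the 109 were called higher (56.0%) and 7 lower (6.42%), against 27.7% and 27.1% of all 19175 genes tested, and 121 and 36 of the other 299 expressed ZNF genes. The median log2 fold change was 0.47, against 0.22 for the other expressed ZNF genes and 0.05 for all genes. Of the 57 genes that rose in the control, 46 also rose in MMP2sh2 (80.7%), near the 75.02% of all genes that rose in the control, and of the 6 that fell 4 also fell. The 46 are 75.4% of the 61 that rose in MMP2sh2. With library totals as the scaling, the medians of all genes and of the 109 were 0.18 and 0.61. The share of reads outside annotated exons was 5.69% to 7.10% at day -2 and 8.15% to 8.79% at day +2, and the mitochondrial share 5.09% to 6.20% and 6.10% to 6.41%; their part in the result was not tested.

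**Figure D5:**
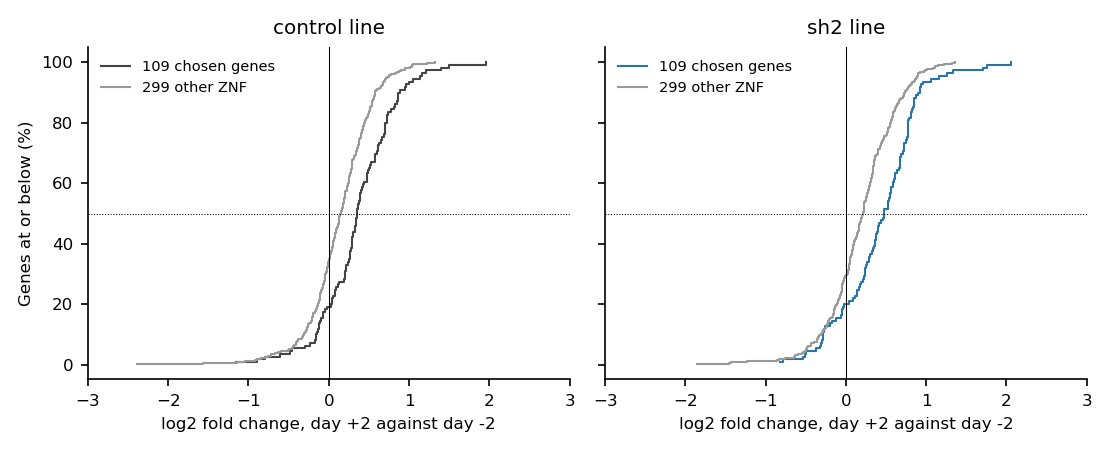
Cumulative share of genes (vertical axis, percent) by log2 fold change from day -2 to day +2 (horizontal axis) in the control (left) and MMP2sh2 (right), for the 109 chosen genes (dark or blue) and the 299 other expressed ZNF genes (grey). The dotted line marks 50%, where the curves cross the medians of 0.35 and 0.15 in the control and 0.47 and 0.22 in MMP2sh2.

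The 5 largest called rises in the control were those of ZNF396, ZNF117, ZNF610, ZNF157 and ZNF214. As groups, the genes below 10 CPM and those at 10 CPM or more had near medians, 0.36 and 0.35 on the log2 scale. ZNF396, which encodes a SCAN domain zinc finger protein, was at 1.09, 0.705 and 0.228 CPM in the subconfluent control, then 1.31, 1.20 and 1.61, then 3.73, 2.499 and 2.59, so that day +2 lay above both earlier days. Its log2 fold change from day -2 to day +2 was 1.95 ± 0.36 (adjusted p = 4.47e-05), and 1.75 ± 0.36 in MMP2sh2 (adjusted p = 0.000109). ZNF117, whose transcripts are joined to those of the endogenous retroviral gene ERV3-1, was at 2.68, 2.52 and 1.31 CPM at day -2 and 6.07, 6.96 and 6.95 CPM at day +2. It rose by 1.49 ± 0.21 in the control (adjusted p = 7.57e-07) and by 2.06 ± 0.20 in MMP2sh2 (adjusted p = 1.94e-10) on the log2 scale.

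ZNF610 and ZNF528, 2 KRAB zinc finger genes of the same chromosome 19 run, rose in both lines. ZNF610 was at 1.499, 1.25 and 1.54 CPM in the subconfluent control, then 1.71, 3.099 and 2.52, then 4.59, 3.09 and 4.48 (log2 fold change 1.40 ± 0.24, adjusted p = 1.34e-05). In MMP2sh2 it went from 1.44, 0.922 and 0.943 to 3.32, 3.79 and 4.77 CPM (1.71 ± 0.26, adjusted p = 1.64e-06). ZNF528 was at 12.3, 11.8 and 10.7 CPM, 17.0, 15.6 and 16.2 CPM and 20.3, 20.1 and 20.0 CPM at the 3 days in the control, without overlap between days. It was at 9.89, 9.14 and 10.5, 13.8, 12.3 and 14.1, and 21.5, 20.0 and 19.2 CPM in MMP2sh2, and at 7.66, 7.19 and 7.26, 10.9, 8.98 and 9.38, and 10.9, 14.1 and 13.3 CPM in MMP2sh1. At day +2 its MMP2sh2 libraries overlapped the control and its MMP2sh1 libraries did not. The log2 fold change from day -2 to day +2 was 0.69 ± 0.09 in the control (adjusted p = 4.84e-07) and 0.90 ± 0.11 in MMP2sh2 (adjusted p = 1.35e-08). ZNF157 and ZNF214, both KRAB zinc finger genes, rose in the control by 1.21 ± 0.36 (adjusted p = 0.00588) and 1.16 ± 0.18 (adjusted p = 4.12e-06) on the log2 scale. In MMP2sh2 ZNF214 rose by 1.33 ± 0.19 (adjusted p = 5.61e-07), while ZNF157 was not called (0.37 ± 0.36, adjusted p = 0.411).

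The 5 largest falls in the control were those of ZNF788, ZNF699, ZNF542, ZNF582 and ZNF492. ZNF542 fell at the first step, from 27.8, 27.1 and 22.4 to 16.7, 19.8 and 16.4 CPM, and by 0.80 ± 0.09 from day -2 to day +2 on the log2 scale (adjusted p = 4.13e-08); in MMP2sh2 it fell by 0.78 ± 0.10 (adjusted p = 1.48e-07). ZNF788 was at 3.12, 3.23 and 3.70 CPM at day -2 and 1.07, 1.81 and 1.89 CPM at day +2 (log2 fold change -1.16 ± 0.25, adjusted p = 0.000255). ZNF699 had a log2 fold change of -0.89 ± 0.15 in the control (adjusted p = 8.34e-06) and of -0.38 ± 0.14 in MMP2sh2 (adjusted p = 0.0271), where the call was lost in 4 of 6 cases of a left-out library and with library totals as scaling (-0.24, adjusted p = 0.167). ZNF582 (-0.61 ± 0.26, adjusted p = 0.0473) and ZNF492 (-0.48 ± 0.20, adjusted p = 0.0362) passed more narrowly, and their calls were lost in 4 and 2 of 6 cases of a left-out library (adjusted p up to 0.237 and 0.136).

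Genes both on chromosome 19 and elsewhere rose over the stages of the control. From day -2 to day +2, 28.1% of all genes were called higher and 28.6% lower. Of the 73 on chromosome 19, 35 were called higher and 4 lower, with a median log2 fold change of 0.34, and of the 33 placed elsewhere 21 were called higher, with a median of 0.39. In MMP2sh2 the medians were 0.53 and 0.41. Within chromosome 19, the run at chr19:21203440-24312770 had 1 of its 8 chosen genes called lower (ZNF492) and a median of -0.03, while 11 of 17 at chr19:52074536-54083523 and 11 of 19 at chr19:55987984-58992597 were called higher, with medians of 0.40 and 0.47. Over all expressed ZNF genes of these runs, chosen or not, the medians in the same order were -0.09, 0.30 and 0.20. The low median of the first run was thus not particular to its chosen genes. These runs were not tested against each other. Genes with and without a KRAB-like stretch had medians of 0.37 and 0.35 in the control and 0.56 and 0.32 in MMP2sh2. Those whose exons overlap another gene had 0.35 in the control and those without overlap 0.36.

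The effect of MMP2sh2 at day +2 was set against that at day -2 by an interaction term over 12 libraries. It was called for 4 of the 109 genes, 3.67%, against 4.98% of all 20653 genes tested. The term was below 0 for ZNF503 (-0.52 ± 0.12 on the log2 scale, adjusted p = 0.0088), which rose by 0.48 ± 0.08 in the control (adjusted p = 6.04e-06) and had a log2 fold change of -0.04 ± 0.09 in MMP2sh2 (adjusted p = 0.75). It was also below 0 for ZNF467, a regulator of bone and fat cell fate (-0.59 ± 0.16, adjusted p = 0.021). ZNF788 (1.46 ± 0.40, adjusted p = 0.025) and ZNF221 (0.90 ± 0.25, adjusted p = 0.0309) were called lower than the control at day -2 and had no call at day +2. The call of ZNF221 at day -2 (adjusted p = 0.0494) was lost without each of the 6 libraries in turn (adjusted p up to 0.179). The difference of ZNF788 at day -2, -1.55 ± 0.25 on the log2 scale (adjusted p = 0.000253), was the lowest estimate of the 109 genes on that day. ZNF467 was the only gene with calls in opposite directions over the stages: it rose by 0.31 ± 0.10 in the control (adjusted p = 0.012) and fell by 0.28 ± 0.12 in MMP2sh2 (adjusted p = 0.0389), on the log2 scale, but the fall was not called in 4 of 6 cases of a left-out library (adjusted p up to 0.245) or with library totals as scaling (-0.14, adjusted p = 0.303). In DESeq2 the fall of ZNF467 was not called either (adjusted p = 0.0662). Its rise in the control was not called by edgeR without control replicate 2 of day -2 (adjusted p = 0.0653) or replicate 1 of day +2 (adjusted p = 0.0855). Over the 109 genes the median of the interaction was 0.08, from 0.03 without MMP2sh2 replicate 3 of day -2 to 0.13 without its replicate 1, against 0.05 for the other expressed ZNF genes.

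The genes of the repressor machinery that KRAB zinc finger proteins use were examined as a list of 17, chosen, like the other lists, with earlier results of these data known. In MMP2sh2, 7 were called lower at day -2 (CBX3, CBX5, CHD3, HDAC2, DNMT1, SMARCAD1 and FAM208A), by 0.15 to 0.31 on the log2 scale, and 4 were called lower and 2 higher at day 0. As shares of the list these were 41.2% lower at day -2, against 6.33% of all genes, and 23.5% lower and 11.8% higher at day 0, against 5.81% and 7.07%. The list was not matched to all genes in level, so these shares are not a like comparison. None was called at day +2 by edgeR or DESeq2, and 2 passed an unadjusted p under 0.05 in edgeR. None was called at all 3 days. TRIM28, the scaffold itself, was at 529 to 561 CPM in the control and 545 to 595 CPM in MMP2sh2 at day -2, which overlapped, and its log2 fold changes at the 3 days were 0.10, 0.05 and 0.05, none called (adjusted p of 0.258, 0.502 and 0.648). Over the control stages TRIM28 fell by 0.66 ± 0.04 on the log2 scale (adjusted p = 9e-13), from 529 to 561 CPM at day -2 to 366 to 369 CPM at day +2. SETDB1 was at 22.7 to 25.3 CPM at day -2 and rose by 0.29 ± 0.08 (adjusted p = 0.002).

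Other zinc finger families were measured beside the ZNF symbols. From day -2 to day +2 of the control, 4 of 15 ZFP genes, 3 of 7 ZKSCAN genes, 8 of 15 ZSCAN genes and 11 of 35 ZBTB genes were called higher, with median log2 fold changes of -0.08, 0.23, 0.32 and 0.05, and 5 ZFP, 1 ZSCAN and 8 ZBTB genes were called lower. The shares called higher were 26.7%, 42.9%, 53.3% and 31.4%, against 28.1% of all genes, so that those of ZFP and ZBTB were near the background. In MMP2sh2 against control at day 0, where 14 of the 109 were lower, 2 of 7 ZKSCAN and 4 of 35 ZBTB genes were called lower, where 5.81% of all genes were, and the medians of the 4 families in the same order were -0.02, -0.20, -0.13 and -0.06.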

How the data were processed

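Poly(A) RNA of 27 U2OS libraries (3 lines, 3 stages, 3 replicates) was sequenced as paired reads. The authors, per their processing notes, used Trim Galore 0.6.0 for trimming, STAR 2.7.3a for alignment to hg19 and HTSeq 2.0.0 for counting on exons, without strand and in union mode; the annotation is not given in the sources used here. The deposited files hold unnormalized whole-number counts by gene symbol. The 5 summary lines of HTSeq, which name no gene (16.8% to 19.1% of the counted total), stayed out of library sizes and tests.

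Levels are CPM over total gene counts. Each comparison had a fit of its own in edgeR 4.0.16 under R 4.3.3 (TMM scaling, filterByExpr with minimum count 10 and total 15, quasi-likelihood test, Benjamini-Hochberg adjustment over all tested genes, threshold 0.05); the standard error is the log2 fold change over the root of F. The scripts were tested on simulated data. Alternatives were DESeq2 1.42.0, other scalings and filters, all 27 libraries, a replicate block and each library left out.

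The genes, the lists and the tests were chosen with earlier results of these data known. Genes named are the 6 with the highest control CPM, the 8 lowest in MMP2sh1, those called in MMP2sh2 at all 3 days or called higher, the 5 largest rises and falls of the control, 2 on each side of the threshold, MMP2, TRIM28 and SETDB1. Positions and translated proteins came from GENCODE v44 on GRCh37; upstream sequence came from RefSeq on GRCh38.p14, by symbol. The marker PECAM1 was not analysed here.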

Additional observations from a re-analysis of the deposited data

Results flagged for a closer look

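The effect of MMP2sh2 against control differed between day +2 and day -2, by the interaction term of edgeR's quasi-likelihood fit over 12 libraries, for 4 of the 109 genes. This share of 3.67% was below the 4.98% of all 20653 genes tested and near the 3.34% of the other expressed ZNF genes. For ZNF503 the difference was -0.519 on the log2 scale, with MMP2sh2 at 25.3 to 30.1 CPM and the control at 25.4 to 32.3 CPM at day -2, and at 27.7 to 33.9 and 40.6 to 43.2 CPM at day +2; the call held without each of the 12 libraries in turn (adjusted p up to 0.0445). For ZNF467 it was -0.591, with MMP2sh2 at 12.5 to 16.7 CPM and the control at 11.6 to 13.5 CPM at day -2, and at 12.3 to 13.6 and 15.04 to 18.5 CPM at day +2. For ZNF788 it was 1.46, with MMP2sh2 at 0.916 to 1.31 CPM and the control at 3.12 to 3.70 CPM at day -2, and at 1.13 to 1.95 and 1.07 to 1.89 CPM at day +2. For ZNF221 it was 0.898, with MMP2sh2 at 2.64 to 3.17 CPM and the control at 3.93 to 4.95 CPM at day -2, and at 4.60 to 6.14 and 3.61 to 4.56 CPM at day +2.

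The calls of ZNF467, ZNF788 and ZNF221 were lost in 5, 4 and 6 of 12 cases of a left-out library, with adjusted p up to 0.0983, 0.0935 and 0.0895, and all 3 were lost without control replicate 1 of day +2 or MMP2sh2 replicate 3 of day -2. ZNF467 and ZNF221 lie outside the rule for named genes and were named after their values were seen.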

How the results depend on the processing

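The medians of the 109 genes kept their sign under each alternative tried. With total gene counts as scaling, the median from day -2 to day +2 was 0.45 in the control and 0.6076 in MMP2sh2, against 0.35 and 0.47; with a library left out the second ranged from 0.3694 (without MMP2sh2 replicate 3 of day -2) to 0.5047. The calls of MMP2sh2 against control were fewer with most libraries left out, which also makes a group smaller. At day -2, 12 genes were called, and 3 to 12 with a library left out: 3, 6 and 5 without control replicates 1, 2 and 3, and 5 without MMP2sh2 replicate 3. At day 0, 14 were called, 9 with no filter on low counts, 5 in a fit of all 27 libraries, and 6 to 14 with a library left out (6 without replicate 1 of either line, 7 without MMP2sh2 replicate 2). At day +2, 6 were called, and 3 to 5 with a library left out (3 without control replicate 1 or 2 or MMP2sh2 replicate 2). The interaction was called for 4 genes and for 1 to 5 with a library left out: 1 without MMP2sh2 replicate 3 of day -2, and 2 without control replicate 3 of day -2 or replicate 1 of either line at day +2. The cause was not tested. From day -2 to day +2, 55 to 61 genes were called with a library left out of the control (63 with all) and 54 to 65 of MMP2sh2 (68 with all). With the replicate number as a block, 10, 10, 4, 40, 30, 60, 68 and 4 genes were called in the 8 comparisons, against 12, 14, 6, 41, 31, 63, 68 and 4. In DESeq2 these counts were 11, 10, 4, 31, 28, 52, 59 and 4. Shares of all genes under the alternatives are not given here, so their counts have no background. The replicate numbers did not pair the samples, as the correlations of same-numbered deviations lay between -0.07 and 0.03. The threshold sets the number of genes: 143 at -0.2, 76 at -0.3, 79 with a constant of 1 CPM, 102 with TMM factors and 102 to 118 with a library left out of the choice. The precision that depth alone gives was not separated from the spread between replicates, which exceeded counting error in all groups.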
